A study of Mus musculus with 71 samples.

Results

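Chromatin accessibility was compared among pMN, p2 and p0-p1, populations of ventral spinal cord progenitors grown from wild-type (WT) mouse embryonic stem cells and sorted on day 5 of differentiation. The libraries were chosen by their labels, WT, day 5 and population, which gave 6 of the 71 libraries of the series, 2 for each population. Accessibility was measured with CaTS-ATAC, a form of ATAC-seq in which cells are fixed, cut by Tn5 transposase and stained inside the cell for marker proteins before sorting, so that each library holds 1 population. All 6 libraries carried NFIAn in their titles, read here as cells without the protein NFIA. They shared 1 culture protocol, in which cells received bFGF, then CHIR99021 (an inhibitor of GSK3β), and then retinoic acid with SAG, an agonist of the hedgehog pathway. Libraries used beside them were 9 of day 5 from another genotype, called MUT (its mutated gene is not named in the labels) and 9 of WT day 7, both NFIAn and 3 per population, together with later days of both genotypes. Nothing in the labels says that replicates came from different cultures, and the spread behind each p-value may therefore be technical.

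The ventral neural tube is divided along its dorsoventral axis into progenitor domains under graded hedgehog signalling. The transcription factor OLIG2 marks pMN, the source of motor neurons and later of oligodendrocytes. Its dorsal neighbour p2 holds NKX6.1 without OLIG2 and gives rise to V2 interneurons, while the more dorsal p0 and p1 domains lack NKX6.1 and give rise to V0 and V1 interneurons. The labels' staining protocol names antibodies to SOX2, NKX6.1 and OLIG2, and these proteins separate neural progenitors of the domains.

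Values are normalised reads, the reads in 1 of 155738 numbered consensus intervals divided by 1 size factor per library. The deposited table gives the intervals neither positions nor gene names, so marker loci of the domains were not checked and no sequence could be matched. The 6 libraries held 21959154 to 26038693 reads in intervals, and the median interval had 27.5 normalised reads, at which counting error alone is 19.1%. That figure covers counting error only, because some ATAC-seq reads may be copies of 1 molecule. In a run of 5 consecutive intervals that separates the genotypes, the 6 WT day 5 libraries held 243 to 292 reads and the 9 MUT day 5 libraries 0 or 1. Reads in the run thus went with the day 5 genotype label in all 15 libraries. The run was known from these same data, so this is not an independent check of the labels. On day 7, pMN replicate 3 went against its label in both genotypes, with 213 reads in MUT and 0 in WT. In the NFIAp fraction of p2 on day 9, replicates spread by 0.45 (root mean square SD, log2) against 0.31 over all groups. Replicate 2 was doubted there from earlier results of these data. The spread alone does not show which replicate stood apart. Results that rest on these 3 libraries are given with and without them. On day 7, WT p2 replicate 2 also stood apart, with 519 reads in the run against 232 and 214 in its replicates. It held 31182405 reads in intervals and had 0.117% of intervals at 0, against 0.802% and 0.823% in its replicates. It was kept in the fits without the 3 doubted libraries.

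Over all intervals the 3 populations lay in the order of their domains, with p2 between the others. The root mean square difference between a pMN and a p0-p1 library was 0.78 to 0.86 on the scale log2(value + 5). It was 0.55 to 0.64 between pMN and p2, and 0.50 to 0.56 between p2 and p0-p1. Replicates differed by 0.40 within pMN, 0.43 within p2 and 0.42 within p0-p1, so every pair across populations lay farther apart than every pair of replicates. Between pMN and p2 the distances from pMN replicate 1 were 0.63 and 0.64, and those from pMN replicate 2 were 0.60 and 0.55. The share of signal in the top 1% of intervals was 17.1% and 17.4% in pMN, 17.8% and 18.1% in p2, and 18.2% and 18.7% in p0-p1; its part in the differences was not tested.

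**Figure D1:**
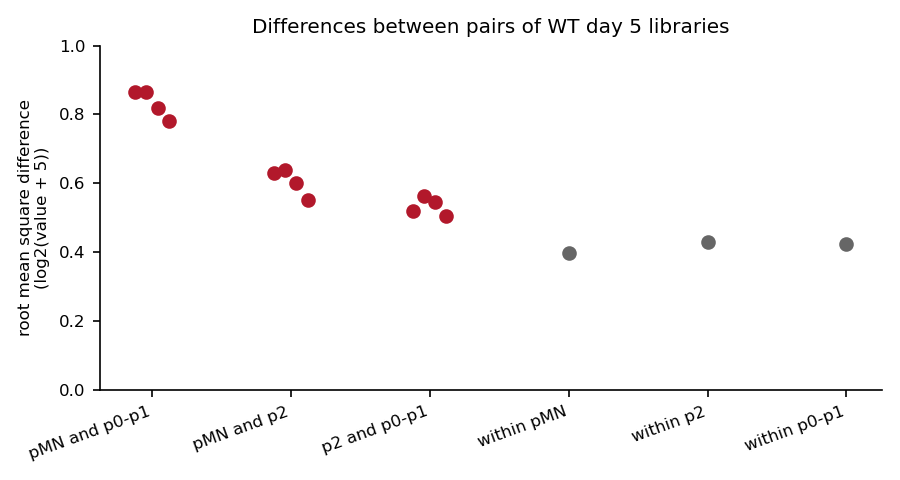
Root mean square difference of log2(value + 5) over all tested intervals for each of the 15 pairs of WT day 5 libraries, 1 point per pair. Red points are pairs across populations and grey points are replicates; pMN and p0-p1 lie farthest apart, at 0.78 to 0.86, and replicates lie at 0.40 to 0.43.

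Each difference between populations was tested with limma on log2(value + 5) over 155734 intervals, with Benjamini-Hochberg adjustment over all of them. A call needed both an adjusted p under 0.05 and an absolute log2 difference of 1 or more. On this scale the change of low intervals is understated. In sorted bulk libraries, more cells with an open interval and a more open interval in each cell cannot be told apart. The 3 pairwise differences share libraries, so their values stand side by side. Their lists are not set against each other, except to pick intervals called in more than 1 pair. Tested together with limma's moderated F-test, 23433 intervals (15.0%) differed among the populations.

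In 14704 of these intervals (62.8%), pMN was highest, p2 intermediate and p0-p1 lowest, where 24.2% of all tested intervals had this order. The opposite order was found in 5891 (25.1%), a smaller share than its 32.0% of all tested intervals. The other 4 orders held from 344 (1.47%) to 1464 (6.25%) of the intervals, and from 9.88% to 13.4% of all tested ones. The largest of these was pMN over p0-p1 over p2, where p2 and p0-p1 were close, with a median step of 0.19 between them on the log2 scale. Orders read from WT were then looked up in the 9 MUT day 5 libraries, which the choice did not use. The order of the group means was the same in MUT for 91.6% of the intervals with pMN over p2 over p0-p1 and for 84.9% of those with the opposite order. It was the same for 37.4% of those with pMN over p0-p1 over p2, and for 22.4% to 55.1% in the remaining orders. The share of all tested intervals with the same order in MUT is not given. In MUT the median of the step that set p2 lowest was -0.10 for pMN over p0-p1 over p2, which is reversed. It was -0.20 for p0-p1 over pMN over p2. The step that set p2 highest was -0.04 with pMN second and 0.17 with p0-p1 second.

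The first question was how far pMN had diverged from p0-p1, the population farthest from it. pMN was higher than p0-p1 in 16550 intervals (10.6% of those tested) and lower in 7126 (4.58%). Higher intervals also differed by more: their median log2 difference was 1.58 and that of lower ones -1.25, against -0.07 over all intervals. A log2 difference of at least 2 was found in 4641 higher intervals (28.0%) and in 350 lower ones (4.91%), and one of at least 3 in 686 and 13. The median levels of the higher intervals were 56.4 normalised reads in pMN and 13.0 in p0-p1, and those of the lower intervals were 15.7 in pMN and 48.0 in p0-p1. In 33.5% of the higher intervals both p0-p1 libraries had fewer than 10 normalised reads, and in 26.5% of the lower ones both pMN libraries did.

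The largest differences were found in intervals that were near 0 in p0-p1. Interval_37707 had 418 and 398 normalised reads in pMN, 50.0 and 60.8 in p2, and 6.79 and 12.4 in p0-p1, with a log2 difference between pMN and p0-p1 of 4.85 ± 0.41 (SE, adjusted p = 2.32e-15, limma). Its p2 level was low but apart from both other populations. Interval_140675 had 175 and 148 in pMN, 39.5 and 48.8 in p2, and 3.40 and 2.25 in p0-p1 (log2 difference 4.41 ± 0.27, SE, adjusted p = 1.09e-20). Interval_62185 had 146 and 128 in pMN, against 10.5 and 5.43 in p2 and 1.13 and 3.37 in p0-p1 (log2 difference 4.31 ± 0.35, SE, adjusted p = 9.44e-16). This interval was open in pMN and close to 0 in both other populations, unlike the first 2.

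Among intervals lower in pMN, Interval_16793 had 20.9 and 32.8 normalised reads in pMN, 96.5 and 112 in p2, and 404 and 389 in p0-p1 (log2 difference -3.68 ± 0.33, SE, adjusted p = 2.63e-14). Interval_91460 had 5.69 and 4.10 in pMN, 18.6 and 19.5 in p2, and 128 and 109 in p0-p1 (log2 difference -3.64 ± 0.31, SE, adjusted p = 2.46e-15). Interval_96380 had 20.9 and 14.4 in pMN, 32.5 and 26.1 in p2, and 226 and 213 in p0-p1 (log2 difference -3.33 ± 0.32, SE, adjusted p = 3.25e-13). In all 3 intervals p2 lay nearer to pMN than to p0-p1 in normalised reads. Without the minimum on the log2 difference, 21417 intervals were higher and 13846 lower in pMN than in p0-p1.

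The next question was what separates pMN from its neighbour p2. pMN was higher than p2 in 8445 intervals (5.42%) and lower in 1787 (1.15%), so 82.5% of the called intervals were higher in pMN. Median log2 differences were 1.35 in the higher and -1.16 in the lower intervals, against -0.04 over all intervals. A log2 difference of at least 2 was found in 607 higher and 12 lower intervals. Without pMN replicate 1 the counts were 3943 higher and 972 lower, and without p2 replicate 1 the count of lower intervals was 691; with no minimum on the difference it was 3361.

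Interval_62185 also led this comparison, with a log2 difference between pMN and p2 of 3.48 ± 0.35 (SE, adjusted p = 2.23e-10, limma). Interval_100288 had 145 and 120.0 normalised reads in pMN, against 4.65 and 16.3 in p2 and 3.40 and 4.50 in p0-p1 (log2 difference 3.26 ± 0.36, SE, adjusted p = 1.71e-09). Interval_58546 had 111 and 56.4 in pMN, against 3.49 and 6.51 in p2 and 2.26 and 4.50 in p0-p1 (log2 difference 3.09 ± 0.43, SE, adjusted p = 3.80e-07). In these 3 intervals p2 was not called different from p0-p1, with adjusted p of 0.245, 0.404 and 0.892.

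The intervals most reduced in pMN relative to p2 were open in both other populations. Interval_48358 had 22.8 and 17.4 normalised reads in pMN, 133 and 97.7 in p2, and 200.3 and 123 in p0-p1 (log2 difference between pMN and p2 -2.25 ± 0.32, SE, adjusted p = 7.64e-07). Interval_75668 had 23.7 and 46.1 in pMN, 195 and 149 in p2, and 335 and 301 in p0-p1 (log2 difference -2.19 ± 0.35, SE, adjusted p = 8.01e-06). Interval_120928 had 19.0 and 36.9 in pMN, 141 and 139 in p2, and 234 and 249 in p0-p1 (log2 difference -2.19 ± 0.39, SE, adjusted p = 5.17e-05). pMN did not overlap with p0-p1 in these intervals either, and p2 and p0-p1 were not called different in any of them.

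The smallest difference was between p2 and p0-p1. p2 was higher in 3650 intervals (2.34%) and lower in 852 (0.547%), with median log2 differences of 1.30 and -1.29, against -0.02 over all intervals. A log2 difference of at least 2 was found in 134 higher and 48 lower intervals, and none reached a log2 difference of 3. These counts changed with single libraries: leaving out 1 of the 4 libraries in turn gave 369 to 562 lower intervals, and the count of higher ones was 1944 without p2 replicate 1 and 2258 without p0-p1 replicate 2. By edgeR, 2177 intervals were higher and 813 lower in p2.

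The intervals with the largest gain in p2 were of different shapes. In Interval_139954 and Interval_121099, p2 lay between the others. Interval_121099 had 540.3 and 462 normalised reads in pMN, 191 and 154 in p2, and 21.5 and 22.5 in p0-p1 (log2 difference between p2 and p0-p1 2.71 ± 0.24, SE, adjusted p = 5.86e-13). Interval_139954 had 311 and 232 in pMN, 129 and 102 in p2, and 13.6 and 12.4 in p0-p1 (log2 difference 2.74 ± 0.26, SE, adjusted p = 1.61e-11). In Interval_56322, p2 lay beside pMN instead. It had 287 and 289 in pMN, 285 and 249 in p2, and 44.1 and 30.4 in p0-p1 (log2 difference between p2 and p0-p1 2.70 ± 0.28, SE, adjusted p = 1.59e-10). Its log2 difference between pMN and p2 was 0.11 ± 0.28 (SE, adjusted p = 0.890).

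The intervals with the largest reduction in p2 relative to p0-p1 were also low in pMN. Interval_96447 had 4.74 and 14.4 normalised reads in pMN and 11.6 and 7.6 in p2, against 97.3 and 99.0 in p0-p1 (log2 difference between p2 and p0-p1 -2.83 ± 0.38, SE, adjusted p = 1.50e-07). Interval_73922 had 22.8 and 24.6 in pMN and 31.4 and 30.4 in p2, against 207 and 204 in p0-p1 (log2 difference -2.55 ± 0.42, SE, adjusted p = 1.79e-05). For Interval_96380, described above, the log2 difference between p2 and p0-p1 was -2.72 ± 0.32 (SE, adjusted p = 5.16e-09). In Interval_96447 both pMN and p2 were low, while in Interval_73922 and Interval_96380 p2 stood near the median level of all intervals. In none of the 3 were pMN and p2 called different.

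**Figure D2:**
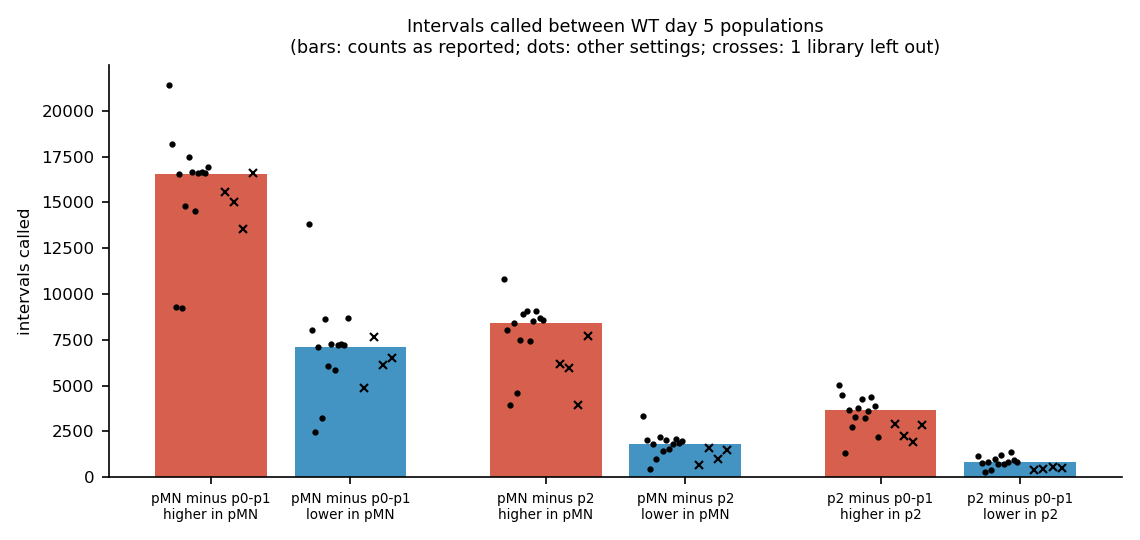
Number of intervals called higher (red bars) and lower (blue bars) in the population named first for each pair of WT day 5 populations. Dots show the count under other settings and crosses the count with 1 of the compared libraries left out; the bars stand at 16550 and 7126, at 8445 and 1787, and at 3650 and 852.

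In each pair, more intervals were higher than lower in the more ventral population. The shares that were higher were 69.9% for pMN over p0-p1, 82.5% for pMN over p2 and 81.1% for p2 over p0-p1. They were 63.1%, 77.4% and 76.8% after quantile normalization, and 74.3%, 85.9% and 84.1% with equal library totals, so the direction of the imbalance did not turn with the scaling. With no minimum on the log2 difference the shares were 60.7%, 76.3% and 81.5%.

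Few intervals were called in p2 against both other populations. Of intervals at or above the median level, 7 were called higher and 4 lower in p2 than in both. Under the same condition on level, 1337 were called in all 3 pairs with pMN over p2 over p0-p1 and 32 with the opposite order. Each of these counts needs calls in more than 1 pair, and the pairs share libraries. For single pairs at that level, with groups that did not overlap, 9176 were higher and 3906 lower for pMN minus p0-p1. They were 4586 and 1125 for pMN minus p2, and 2830 and 402 for p2 minus p0-p1. By means alone, p2 was highest in 528 (2.25%) and 502 (2.14%) F-test intervals, with p0-p1 and pMN second. Of all tested intervals, 13.4% and 9.88% had these orders. p2 was lowest in 344 (1.47%) and 1464 (6.25%), with pMN and p0-p1 second, against 10.6% and 10.0% of all tested. Interval_126237 had 17.1 and 35.9 normalised reads in pMN, 102 and 86.8 in p2, and 28.3 and 27.0 in p0-p1. Its log2 difference was -1.72 ± 0.29 for pMN minus p2 (SE, adjusted p = 1.47e-05) and 1.60 ± 0.29 for p2 minus p0-p1 (SE, adjusted p = 7.93e-05). It was the only one of the 3 highest-ranked intervals with a maximum in p2 that was called under every setting tried; Interval_47356 and Interval_141536, with p2 at 121 and 91.2 and at 184 and 187 normalised reads, lost a call when 1 library was left out.

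Interval_96381, the next number after Interval_96380, ranked first among those with a minimum in p2. It had 59.7 and 32.8 normalised reads in pMN, 8.14 and 3.26 in p2, and 46.4 and 46.1 in p0-p1. Its log2 difference was 2.25 ± 0.38 for pMN minus p2 (SE, adjusted p = 1.60e-05) and -2.30 ± 0.38 for p2 minus p0-p1 (SE, adjusted p = 1.54e-05). The consecutive pair differed in pMN: Interval_96380 was low there, while for Interval_96381 the log2 difference between pMN and p0-p1 was -0.05 ± 0.38 (SE, adjusted p = 0.945). Interval_104169 and Interval_151461 were also lowest in p2, at 32.5 and 39.1 and at 18.6 and 28.2 normalised reads, and each lost a call when 1 library was left out.

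Graded intervals were ranked by the smaller of their 2 steps, a rule that picks steps of similar size. Over the intervals ordered pMN over p2 over p0-p1 in the F-test, the median log2 step was 1.00 between pMN and p2 and 0.70 between p2 and p0-p1. Interval_37707, first in that class, had steps of 2.78 and 2.07. Interval_65350 had 186 and 185 normalised reads in pMN, 50.0 and 28.2 in p2, and 7.92 and 3.37 in p0-p1, with log2 steps of 2.15 ± 0.30 for pMN minus p2 and 2.04 ± 0.30 for p2 minus p0-p1 (SE). Interval_9212 had 261 and 199 in pMN, 53.5 and 51.0 in p2, and 9.05 and 9.0 in p0-p1, with log2 steps of 2.02 and 2.03. By edgeR, the step from p0-p1 to p2 was not called in Interval_9212 or Interval_37707. Interval_54677 was graded the other way, with 11.4 and 6.15 in pMN, 30.2 and 34.7 in p2, and 131 and 94.5 in p0-p1. Interval_66566 had the same order, with 6.64 and 15.4 in pMN, 47.7 and 30.4 in p2, and 92.8 and 138 in p0-p1, and its call depended on single libraries.

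**Figure D3:**
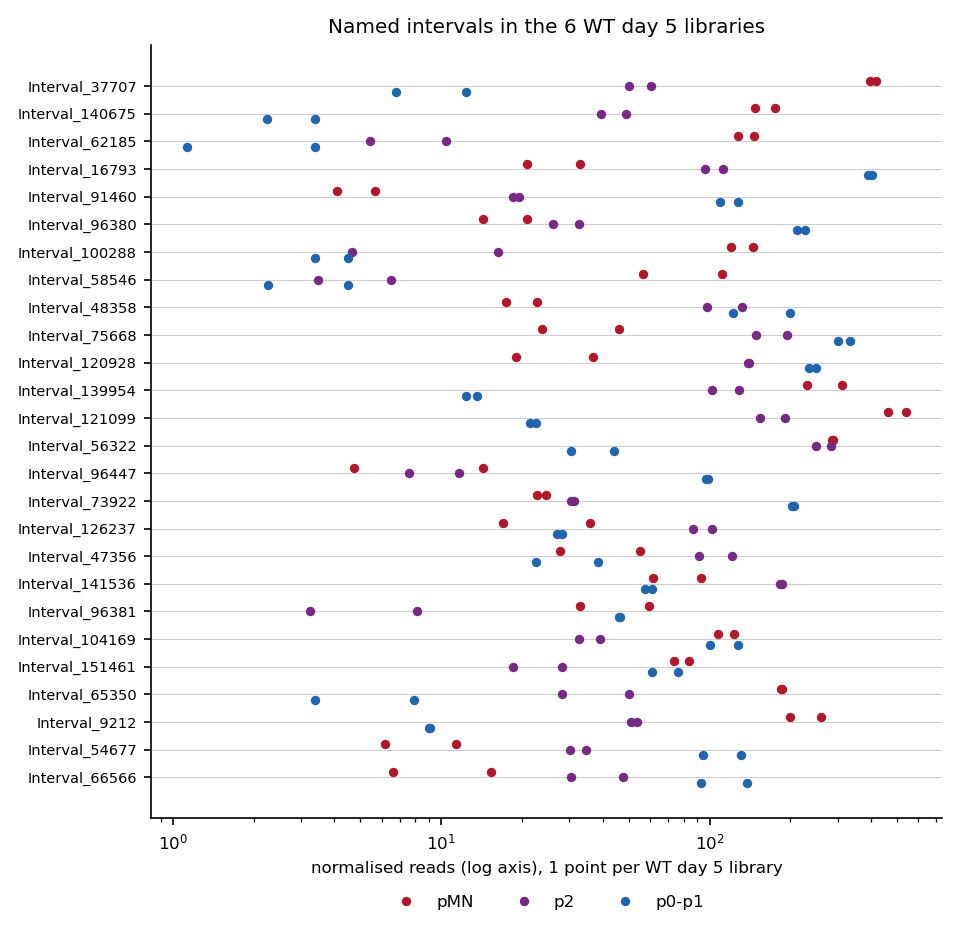
Normalised reads (log axis) of the 26 named intervals in the 6 WT day 5 libraries, 1 point per library, with pMN in red, p2 in purple and p0-p1 in blue. Interval_37707 stands at 418 and 398 in pMN, 50.0 and 60.8 in p2 and 6.79 and 12.4 in p0-p1.

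The place of p2 between the outer populations was measured in the MUT day 5 libraries, over intervals chosen in WT for the difference between pMN and p0-p1. In the 16550 higher intervals the median step was 1.01 between pMN and p2 and 0.56 between p2 and p0-p1 (log2). The step next to pMN was the larger one in 72.7% of them. Where the whole difference in MUT was at least 1 in the same direction, p2 lay at a median of 0.37 of the way from p0-p1 to pMN (interquartile range 0.22 to 0.52). In the 7126 lower intervals the steps were 0.65 and 0.40, with the larger next to pMN in 64.7%, and p2 lay at a median of 0.46 of the way from p0-p1 to pMN (interquartile range 0.29 to 0.62).

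Intervals are known here by number alone. In every list, the number after a called interval was also called more often than the share of all intervals called. The next number was also called in 17.4% of the intervals higher in pMN than p0-p1, where 10.6% of all intervals were called, and in 8.62% of the lower ones, where 4.58% were. For pMN minus p2 the next number was called in 10.3% of the higher intervals, where 5.42% of all were called, and in 1.96% of the lower ones (35 intervals), where 1.15% were. For p2 minus p0-p1 it was called in 5.23% of the higher intervals, where 2.34% of all were called, and in 1.88% of the lower ones (16 intervals), where 0.547% were. The longest run, from Interval_15096 to Interval_15108, held 13 intervals, all higher in pMN than p0-p1 by a log2 difference of 1.17 to 2.84. Its mean level was 120 and 93.8 normalised reads in pMN, 31.4 and 30.9 in p2, and 19.1 and 21.8 in p0-p1. All 13 were called in MUT as well, where the run averaged 98.4 to 153 in pMN libraries and 23 to 25 in p0-p1 libraries. On day 11 of WT the order in this run was different, with 80.0 to 99.7 in pMN, 47.3 to 48.5 in p2 and 106 to 114 in p0-p1.

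Another run, from Interval_43003 to Interval_43009, held 7 intervals at a mean of 183 and 149 normalised reads in pMN, 61.8 and 58.0 in p2, and 25.5 and 29.7 in p0-p1. It remained highest in pMN on day 11, at 175 to 220 in pMN, 120 to 156 in p2 and 108 to 131 in p0-p1. The longest run of lower intervals held 6, from Interval_116064 to Interval_116069, with 73.5 and 73.8 in pMN, 112 and 108 in p2, and 202 and 192 in p0-p1. How far apart the intervals of a run lie in the genome was not analysed here.

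Whether the differences among the populations depended on the genotype was asked with the difference of differences between WT day 5 and MUT day 5, and no interval was called for any of the 3 pairs (0.0% by limma, and 0 by edgeR). At an unadjusted p under 0.05 there were 4565 intervals (2.93%) for pMN minus p0-p1, 3019 (1.94%) for pMN minus p2 and 3770 (2.42%) for p2 minus p0-p1. Each share is below the 0.05 that no difference at all would give, so in this fit, which has no block, the counts show no excess and the test was conservative. The median SE of such a difference was 0.41, so an unadjusted 95% interval reached 0.80 on either side on the log2 scale. Larger estimates also went uncalled after adjustment over all intervals: 1862 intervals had an absolute log2 difference of at least 1 between the genotypes for pMN minus p0-p1. With the replicate number as a block within genotype and day, 4 intervals were called for pMN minus p0-p1, 1 more positive and 3 more negative in WT. With that block in a fit to the compared libraries alone, 65 were called, 22 more positive and 43 more negative. At an unadjusted p under 0.05, the block gave 9231, 5831 and 7328 intervals for the 3 pairs, in the order above. Within the compared libraries the block gave 12815, 7247 and 9427. Of these counts, 9231, 12815 and 9427 are above a share of 0.05, so the lack of an excess depended on the fit.

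Intervals chosen in MUT alone mostly differed in the same direction in WT, whose libraries had no part in the choice. Of the 17083 intervals higher in MUT pMN than MUT p0-p1 (11.0%), 99.7% were higher in WT pMN too, against 44.05% of all intervals, and 80.9% were also called in WT, with a median log2 difference of 1.54 in WT and 1.56 in MUT. Of the 7165 lower ones (4.6%), 99.4% were lower in WT, against 55.9% of all intervals, and 56.1% were also called, with medians of -1.09 in WT and -1.24 in MUT. For pMN minus p2, 6.12% of intervals were higher and 0.876% lower in MUT, and their WT medians were 1.26 and -0.94; 69.2% of the higher and 40.2% of the lower were also called in WT. For p2 minus p0-p1, 2.44% were higher and 0.929% lower in MUT, with WT medians of 1.15 and -0.89; 58.7% and 32.5% were also called in WT. The same sign was seen in 97.5% or more of each of these lists, against 44.05% to 55.9% of all intervals, and no interval was called in the opposite direction. Across all intervals, which are not independent replicates, Pearson's r between the WT and MUT differences was 0.89 for pMN minus p0-p1, 0.80 for pMN minus p2 and 0.67 for p2 minus p0-p1.

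Library values of single intervals overlapped between the genotypes in some cases and not in others. Of the 26 named intervals, the WT and MUT libraries did not overlap in 8 for pMN, 9 for p2 and 6 for p0-p1. No such difference was tested. The share of all intervals without overlap is not given, so these counts do not show that levels differed between the genotypes. Interval_91460 had 5.69 and 4.10 normalised reads in WT pMN, against 15.2 ± 5.995 in MUT pMN (SD, n = 3). Interval_48358 had 22.8 and 17.4 in WT pMN, against 37.7 ± 1.85 in MUT pMN (SD, n = 3). In MUT, Interval_37707 averaged 384 ± 27.7 normalised reads in MUT pMN, 53.7 ± 15.8 in MUT p2 and 11.1 ± 3.15 in MUT p0-p1 (SD, n = 3 each). Interval_56322 averaged 268 ± 35.6 in MUT pMN, 255 ± 59.8 in MUT p2 and 39.1 ± 21.6 in MUT p0-p1 (SD, n = 3 each). Interval_96381 had its minimum in p2 in MUT too, at 43.3 ± 6.04 in pMN, 7.27 ± 1.17 in p2 and 65.6 ± 11.6 in p0-p1 (SD, n = 3 each). Interval_126237 had its maximum there, at 52.6 ± 23.3 in MUT pMN, 114 ± 31.0 in MUT p2 and 33.6 ± 8.87 in MUT p0-p1 (SD, n = 3 each), where its WT pMN libraries held 17.1 and 35.9.

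**Figure D4:**
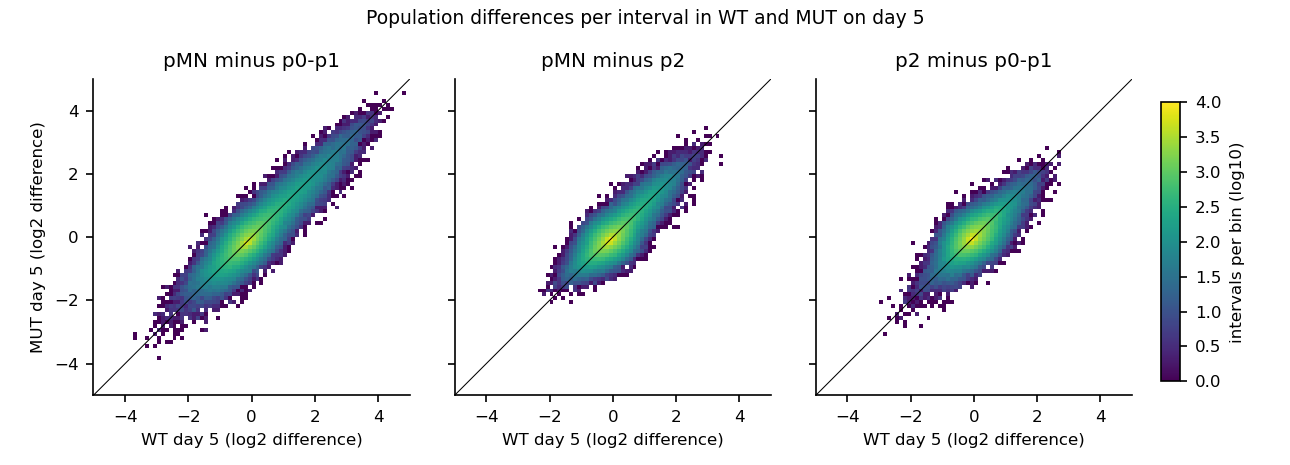
Log2 difference between populations for every tested interval, WT day 5 on the horizontal and MUT day 5 on the vertical axis, with colour giving the number of intervals per bin (log10) and the line marking equality. The clouds follow the line most closely for pMN minus p0-p1 (r = 0.89) and least for p2 minus p0-p1 (r = 0.67).

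Set against day 7 of WT, the day 5 differences of pMN were more positive in many intervals, which need not mean larger in size. The difference between pMN and p0-p1 itself differed between day 5 and day 7 in 8076 intervals (5.19%), of which 6631 were more positive on day 5 and 1445 more negative. Leaving out 1 library gave as few as 3998 more positive (without pMN replicate 1 of day 5) and 780 more negative (without p0-p1 replicate 1 of day 5). That between pMN and p2 differed in 5359 (3.44%), 4881 more positive on day 5 and 478 more negative, and single libraries lowered these to 2345 (without pMN replicate 1 of day 5) and 197 (without p2 replicate 1 of day 5). That between p2 and p0-p1 differed in 86 (0.0552%). Without the 3 doubted libraries the counts were 8430 (7360 more positive and 1070 more negative), 6028 (5648 and 380) and 179. With the replicate number as a block they were 11560 (8915 and 2645), 8505 (7174 and 1331) and 927. Without pMN day 5 replicate 1 the counts were 5066 for pMN minus p0-p1 and 2648 for pMN minus p2, and edgeR called 5077 (4340 more positive and 737 more negative), 4657 (4310 and 347) and 11. For p2 minus p0-p1, leaving out 1 library gave 8 (without p2 replicate 1 of day 5) to 80 intervals.

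The change between the days concerned mostly intervals that were higher in pMN. Among intervals chosen in MUT day 5 as higher in pMN than p0-p1, 30.6% had a more positive difference on WT day 5 than on WT day 7, against 4.26% of all intervals, and their median log2 difference was 1.54 on day 5 and 0.71 on day 7. Among those chosen as lower in pMN, 2.61% had a more negative difference on day 5, against 0.928% of all intervals, and their medians were -1.09 on day 5 and -0.75 on day 7. For pMN minus p2, 29.0% of the intervals chosen as higher had a more positive difference on day 5, against 3.13% of all intervals, with medians of 1.26 on day 5 and 0.34 on day 7. Without the 3 doubted libraries the 2 shares of higher intervals were 32.9% and 32.5%, with day 7 medians of 0.64 and 0.26, and the day 7 median of the lower intervals of pMN minus p0-p1 was -0.82.

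The named intervals were chosen by their day 5 values, which favours a larger difference on that day. Of them, Interval_140675 had a larger difference between pMN and p0-p1 on day 5 than on day 7 by 3.62 on the log2 scale (adjusted p = 2.38e-11, limma). Without the doubted pMN library of day 7 the change was 3.53. On day 7 the interval averaged 123 ± 17.4 normalised reads in pMN, 138 ± 40.8 in p2 and 68.9 ± 9.21 in p0-p1 (SD, n = 3 each), so reads were no longer near 0 in p0-p1. Interval_121099 had 293 ± 52.6 in pMN, 440.0 ± 66.8 in p2 and 221 ± 22.0 in p0-p1 on day 7 (SD, n = 3 each). In Interval_100288 it was pMN that was lower on day 7, at 23.5 ± 9.03, beside 12.6 ± 3.55 in p2 and 7.04 ± 1.33 in p0-p1 (SD, n = 3 each). In the pMN libraries of day 7 other than the doubted one, Interval_140675 had 119 and 142 normalised reads, Interval_121099 233 and 315, and Interval_100288 25.2 and 13.8.

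In other named intervals the population that stood apart on day 5 still did so later. Interval_56322 averaged 256 ± 20.5 normalised reads in pMN, 220 ± 46.4 in p2 and 21.3 ± 7.06 in p0-p1 on day 7 (SD, n = 3 each). On day 11 it averaged 98.1 ± 11.8 in pMN, 139 ± 7.35 in p2 and 11.6 ± 6.21 in p0-p1 (SD, n = 3 each), so p0-p1 stayed apart on both days. Interval_58546 had 142 ± 40.0 in pMN, 18.0 ± 5.69 in p2 and 6.61 ± 2.08 in p0-p1 on day 7, and 124.6 ± 26.3, 56.1 ± 11.6 and 56.2 ± 8.34 on day 11 (SD, n = 3 each). Interval_16793 was highest in p0-p1 on both days, at 14.9 ± 9.12 in pMN, 41.2 ± 6.92 in p2 and 220 ± 39.5 in p0-p1 on day 7, and 6.4 ± 1.71, 11.1 ± 0.64 and 65 ± 7.71 on day 11 (SD, n = 3 each). Without the doubted library, the day 7 levels in pMN were 263 and 233 in Interval_56322, 98.7 and 149 in Interval_58546, and 5.74 and 14.8 in Interval_16793.

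The lists chosen on WT day 5 were followed through later days of WT, where the size of a difference on day 5 itself is raised by the choice. The 16550 intervals higher in pMN than p0-p1 had a median log2 difference of 1.56 in MUT day 5 and of 0.69, 0.13 and -0.10 on days 7, 9 (NFIAn) and 11 (NFIAp) of WT. Of these intervals 83.5% were called higher in MUT day 5, against 11.0% of all intervals, 32.0% on day 7 (5.59% of all), 7.85% on day 9 (1.9%) and 7.30% on day 11 (6.82%). By day 11 the list was thus called higher in pMN about as often as all intervals, and 9.28% of it was called lower there, against 8.98% of all. Without the doubted pMN library of day 7 the median of that day was 0.62, and 28.9% were called higher (5.009% of all).

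The 7126 intervals lower in pMN kept more of their difference, with medians of -1.07 in MUT day 5 and -0.88, -0.64 and -0.43 on days 7, 9 and 11 of WT. They were called lower in 56.4% in MUT day 5 (4.6% of all intervals), 41.7% on day 7 (4.19%), 31.1% on day 9 (6.21%) and 23.4% on day 11 (8.98%). Without the doubted library the median of day 7 was -0.94, and 46.4% were called lower (5.04% of all). For p2 minus p0-p1, intervals higher in p2 had medians of 0.71, 0.51 and 0.05 on days 7, 9 and 11, and intervals lower in p2 had -0.82, -0.73 and -0.58. For pMN minus p2, intervals higher on day 5 had medians of 0.32 (0.24 without the doubted library), -0.14 and -0.02 on days 7, 9 and 11, and on day 9 13.5% of them were called lower in pMN, against 4.8% of all intervals. Day and NFIA fraction change together between days 5 and 11 of WT and cannot be told apart there.

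Levels in each population showed where the differences closed. In the intervals higher in pMN, the median level in WT pMN was 55.8, 39.4, 28.1 and 22.3 normalised reads on days 5, 7, 9 and 11, and 37.1 on day 7 without the doubted library. In WT p0-p1 the median was 12.4, 21.7, 25.2 and 25.7, and in WT p2 it was 23.6, 33.9, 35.1 and 25. For day 5, 56.4 in pMN and 13.0 in p0-p1 were given above, from a separate summary of the same libraries. Days are compared only within the summary used here. In MUT, which was NFIAn on all days, the medians on days 5 and 11 were 56.3 and 25.6 in pMN, 23.1 and 31.8 in p2, and 13.6 and 30.8 in p0-p1. In both genotypes the median of this list was lower in pMN, and higher in p0-p1, on day 11 than on day 5.

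That movement was tested in MUT, whose libraries did not choose the list. From day 5 to day 11 the median log2 change of these intervals was -0.96 in MUT pMN, where 48.6% fell, against 19.5% of all intervals. In MUT p0-p1 the median change was 0.88 and 46.5% rose, against 24.1% of all intervals, and in MUT p2 it was 0.34, with 31.4% that rose against 22.4%. The intervals lower in pMN fell in all 3 populations, with medians of -0.52 in MUT pMN, -0.97 in MUT p2 and -1.07 in MUT p0-p1, where 32.5%, 48.8% and 51.9% fell, against 19.5%, 17.9% and 17.4% of all intervals.

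**Figure D5:**
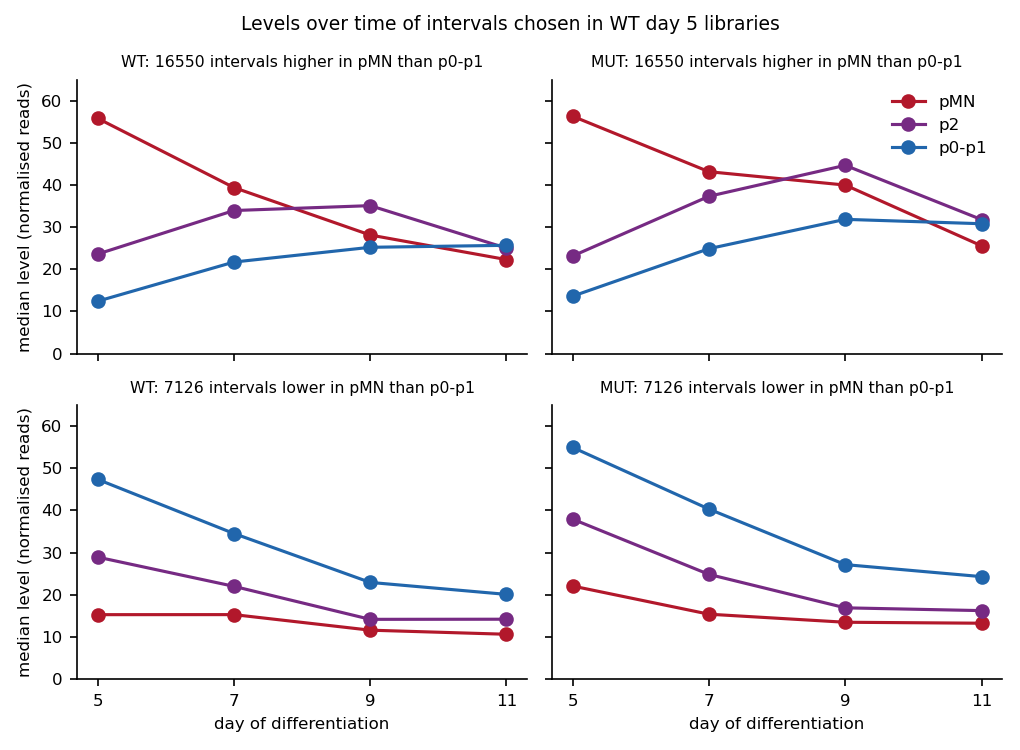
Median level (normalised reads) by day of the 16550 intervals higher (top) and the 7126 lower (bottom) in WT pMN than in WT p0-p1 on day 5, in WT (left; day 9 is NFIAn and day 11 NFIAp) and MUT (right), with 1 line per population. In the top panels pMN and p0-p1 move towards each other, to 22.3 and 25.7 in WT and 25.6 and 30.8 in MUT on day 11; in the bottom panels all 3 populations are lower on day 11 than on day 5 and keep their order. The day 7 points of pMN include 1 doubted library in each genotype.

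On day 9 of WT, p2 and pMN were each split into NFIAp and NFIAn fractions, which gives a readout separate from day 5. Intervals that were higher in p2 than p0-p1 on day 5 were lower in the NFIAp than in the NFIAn fraction of p2, with a median log2 difference of -0.59, and 25.7% of them were called lower, against 2.61% of all intervals. Without the doubted library the median was -0.75, and 34.3% were called lower, against 3.03%. This was not particular to that list. Of the intervals higher in pMN than p0-p1, 13.52% were called lower in NFIAp p2, and of those higher in pMN than p2, 13.5%. Without the doubted library these shares were 18.07% and 20.14%. Of the intervals lower in pMN than p0-p1 and than p2, 0.744% and 2.57% were called lower, with all libraries. Intervals lower in p2 than p0-p1 had a median of 0.08, and 1 of 852 was called lower. In pMN the median difference between the fractions was -0.03 for the intervals higher in p2, and 19 of all intervals were called between the pMN fractions by limma.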

How the data were processed

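The authors deposited 1 table of signal: reads in each consensus interval, scaled by a size factor that is the same for a whole library. Reads were placed on mm10, per the submitters' processing notes. The aligner, peak caller and counting tool are not given in the sources used here. Dividing each column by its smallest step returned whole reads, within 0.01, for 100% of values. For WT D9 pMN NFIAn replicate 2 and for MUT D11 p2 replicate 1 that step is so close to 1 that scaled and unscaled values look alike.

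Libraries were grouped by their labels into 26 groups of genotype, day, population and fraction. The main test was limma 3.58.1 (R 4.3.3) on log2(value + 5), in 1 fit of the group means to all 71 libraries (45 residual degrees of freedom) with a mean-variance trend, so that groups of 2 share a spread with the rest. Tested intervals, 155734 in number, reached 10 normalised reads in 2 or more libraries. Adjusted p-values are Benjamini-Hochberg over all tested intervals. Comparisons were the 3 pairwise differences of WT day 5, an F-test over them, and the difference of each from MUT day 5 and from WT day 7. The script for these tests was tested on simulated data.

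Named intervals were, for each pair and direction, the 3 called ones of largest log2 difference whose mean over the 6 libraries was no lower than the median and whose 2 groups did not overlap, and, under the same condition on level, the 3 with a maximum in p2, with a minimum in p2, or graded in each direction. The members, lists and rules were chosen with earlier results of these data known.

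Libraries that share a replicate number deviated together, with correlations across intervals of 0.17 to 0.24 on WT day 5, 0.12 to 0.29 on MUT day 5 and 0.17 to 0.41 on WT day 7. On WT day 5 there are only 2 numbers, and the labels do not say what a number marks. The fit with a block is given beside a result where it moves the count by over 1.5 times. Other settings were pseudocounts of 1 and 20, no filter, a minimum mean of 30, no minimum on the log2 difference, quantile normalization, equal library totals, the replicate block, a fit to the compared libraries, leaving out 3 stretches of interval numbers in which genotypes or replicates shift together, leaving out each library, and edgeR 4.0.16 on the recovered reads. A fit without the 3 doubted libraries was added after the data were seen. Figures were drawn with matplotlib 3.10.9.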

Additional observations from a re-analysis of the deposited data

Results flagged for a closer look

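The differences between populations changed from day 5 to day 7 of WT by the test of the difference itself, in 8076 intervals for pMN minus p0-p1, 5359 for pMN minus p2 and 86 for p2 minus p0-p1. These were 5.19%, 3.44% and 0.0552% of all tested intervals. The named intervals were chosen by their WT day 5 values, which this comparison uses again, so the choice favours a change. Of the 26 named intervals, 13 changed for pMN minus p0-p1, 11 of them more positive on day 5 and 2 more negative. The difference was more positive on day 5 by 3.84 in Interval_121099, 3.62 in Interval_140675, 3.13 in Interval_37707, 3.06 in Interval_9212, 2.97 in Interval_65350, 2.76 in Interval_139954 and 2.74 in Interval_100288 (log2). It was more positive by 1.93 in Interval_141536, 1.81 in Interval_47356, 1.72 in Interval_151461 and 1.66 in Interval_62185. It was more negative on day 5, with a change of -2.15 in Interval_96381 and -1.43 in Interval_54677. Not every change was a larger difference on day 5. In Interval_141536, Interval_47356 and Interval_151461 the difference was 0.33, 0.36 and 0.19 on day 5 and -1.60, -1.46 and -1.53 on day 7. In Interval_96381 it was -0.05 on day 5 and 2.095 on day 7. For pMN minus p2, 9 changed, all more positive on day 5: by 2.59 in Interval_100288, 2.54 in Interval_151461, 2.40 in Interval_62185, 2.27 in Interval_65350, 2.24 in Interval_9212, 2.10 in Interval_121099, 2.02 in Interval_37707, 1.88 in Interval_140675 and 1.62 in Interval_139954. For p2 minus p0-p1, 2 changed, by 1.74 in Interval_121099 and 1.73 in Interval_140675. Without the 3 doubted libraries all of these single-interval differences were still called, 2 more were called, both more negative on day 5, and the counts were 8430, 6028 and 179.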

How the results depend on the processing

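No called difference of a named interval changed sign under any setting tried, and in each pair on day 5 more intervals were higher than lower throughout. The median over all intervals, within 0.1 of 0 each time, changed sign in some settings, such as leaving out 1 library; with equal library totals it was 0.01 for p2 minus p0-p1, and between days 5 and 7 it was 0.04 for pMN minus p0-p1, 0.05 for pMN minus p2 and -0.01 for p2 minus p0-p1, against -0.02, -0.04, -0.04 and 0.02. The few intervals called between WT and MUT for pMN minus p0-p1 were 2 more positive and 0 more negative in WT with pseudocounts of 1 and 20, but 1 and 3 with the replicate block and 22 and 43 with the block within the compared libraries. With a pseudocount of 20, counts of intervals higher and lower were 9301 and 2442 for pMN minus p0-p1, 3959 and 423 for pMN minus p2 and 1316 and 295 for p2 minus p0-p1, and 11992 in the F-test; 2 differed between WT and MUT for pMN minus p0-p1. With a minimum mean of 30, which tests fewer intervals, they were 9248 and 3260 for pMN minus p0-p1, 4589 and 986 for pMN minus p2, 367 lower for p2 minus p0-p1, 12733 in the F-test, and 4772 and 3101 between days 5 and 7 for both comparisons of pMN. With no minimum on the log2 difference, 21417 were higher and 13846 lower for pMN minus p0-p1. For pMN minus p2 they were 10813 and 3361. With a pseudocount of 1, WT differed from MUT in 2 intervals for pMN minus p0-p1, 3 for pMN minus p2 and 1 for p2 minus p0-p1. The replicate block gave 4 between WT and MUT for pMN minus p0-p1, 8505 between days 5 and 7 for pMN minus p2 and 927 for p2 minus p0-p1, and within the compared libraries 1354 lower for p2 minus p0-p1, 65 between WT and MUT for pMN minus p0-p1 and 893 between the days for p2 minus p0-p1. Among the counts by direction it gave 2645 (pMN minus p0-p1) and 1331 (pMN minus p2) more negative on day 5 than day 7. Within the compared libraries the counts between the days were 10904 and 7890 with the block, against 6850 and 4325 without it. The count between the days for p2 minus p0-p1 was 197 with a pseudocount of 1. After quantile normalization it was 171 (63.7% more positive on day 5, against 74.4%). It was 13 within the compared libraries, 179 without the doubted libraries and 11 by edgeR. By edgeR there were also 5077 between the days for pMN minus p0-p1, and 2177 higher for p2 minus p0-p1 on day 5.

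Leaving out 1 library gave 13558 to 16622 higher and 4870 to 7638 lower intervals for pMN minus p0-p1, 3943 to 7711 and 691 to 1622 for pMN minus p2, 1944 to 2931 and 369 to 562 for p2 minus p0-p1, and 17019 to 24199 in the F-test. It gave 0 between WT and MUT each time, and between days 5 and 7 it gave 5066 to 7918, 2648 to 5591 and 8 to 80. The last count was 40 and 20 without p0-p1 replicate 1 and 2 of day 5, 8 and 26 without p2 replicate 1 and 2 of day 5, 41 and 48 without p0-p1 replicate 2 and 3 of day 7, and 44 without p2 replicate 2 of day 7. The cause was not tested for any of these. At 2 libraries a population and 27.5 reads in the median interval, the median SE of a difference was 0.32 on the log2 scale.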
